A study of Mus musculus with 6 samples.

Results

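The interleukin 1 system and the inflammasome were followed here as 10 genes, matched by symbol among the 47593 gene rows of an RNA-seq table of mouse bone marrow cells. They are the ligand genes Il1a, Il1b and Il18, the antagonist gene Il1rn, the receptor genes Il1r1, Il1rap and Il1r2, and the processing genes Nlrp3, Pycard and Casp1. All 10 had a row. The set follows the function of the genes, and earlier results of these data were known when it was proposed.

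The E531R group (3 libraries) and the WT group (3 libraries) both came from femur marrow cells selected for c-Kit, a surface receptor of early blood cells. Both carried an MLL-AF9 leukaemia fusion gene delivered in the retroviral vector MSCVneo, with the substitution E531R in the AF9 part of one group and the unchanged fusion in the other. All cultures were selected with G418 and passaged serially in methylcellulose with cytokines, and untransformed marrow was not analysed here. The series describes the comparison as one of losing the binding between AF9 and the corepressor BCOR. The labels leave out strain, age, the number of animals and whether replicates were separate infections, so p-values measure the spread between these libraries, which may be technical.

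Interleukin 1 alpha and interleukin 1 beta bind the same receptor, IL1R1, which pairs with the accessory chain IL1RAP to signal through MYD88 and NF-kB. The antagonist IL1RN occupies that receptor without signalling, and IL1R2 is a decoy that binds the ligand but lacks the signalling domain. Interleukin 1 beta and interleukin 18 are made as inactive precursors. They are cut by caspase 1 after the sensor NLRP3 assembles with the adaptor ASC (gene Pycard) into an inflammasome. In marrow, interleukin 1 pushes stem and progenitor cells toward myeloid cells, and in human acute myeloid leukaemia IL1RAP is known as a surface protein of leukaemic cells.

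In E531R cells all 3 ligand genes, Il1rn, Il1r2 and Nlrp3 rose, by between 3.37-fold (Il1r2) and 22.1-fold (Il18) of the mean normalised read count. Il1rap, Pycard and Casp1, which were already abundant in WT, did not pass the test, and Il1r1 lay near the lower limit of detection in both groups. Of the 9 tested members, 6 were therefore higher and 0 lower in E531R, where 10.4% of all 12991 tested genes were higher and 9.53% lower. The test was limma on log2(normalised read count + 1) for every gene that averaged at least 10, with a threshold of 0.05 on the adjusted p. The median log2 fold change was 2.78 over the tested members and 0.01 over all tested genes. Il1r1, with a mean under 10, was the member not tested. Il1a, Il1b and Il18 met that minimum through E531R only, with WT means of 3.57, 2.87 and 1.70. Genes admitted in this way could hardly pass as lower, which bears on the counts and the median of the members. The same filter applied to all tested genes. The authors' deposited table, which uses DESeq2, also had 6 members higher and 0 lower at an adjusted p under 0.05, where it called 7.91% of its genes higher and 7.5% lower. On the recovered reads edgeR called 10.7% of genes higher and 9.63% lower, and DESeq2 10.6% and 9.5%, and each had the same counts of 6 and 0 among the members.

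The libraries held between 23755210 and 33459668 gene reads in E531R and between 14161139 and 30597351 in WT. WT replicate 3 stood apart: its log2 values had a Pearson correlation across genes of 0.978 and 0.977 with the other WT libraries, against 0.994 between those and at least 0.995 among the E531R libraries. Without it 24.3% of genes were higher and 23.1% lower, and 7 members were higher and 1 lower. The myeloid nature of the cells showed in both groups: Mpo, Elane and Ctsg, granule enzymes of early granulocyte precursors, averaged 137253, 80438 and 37851.5 in E531R and 93562.7, 67552.3 and 68374.9 in WT.

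The ligand genes are shown first by the stretch of DNA in front of them. These members had the fewest reads in WT and the largest folds of the mean normalised read count. Each line holds the 250 bases before the start of the gene in RefSeq (build GRCm38.p6), 5′ to 3′ on the gene's own strand. Il1a lies at chr2:129309973-129310222 and Il1b at chr2:129371140-129371389, both on the minus strand, and Il18 at chr9:50554450-50554699 on the plus strand. Capitals mark matches, on either strand, to 4 motifs of myeloid and inflammatory factors: GGG and CC separated by 5 free bases (NF-kB), TTGCNNAA (C/EBP), GAGGAA (PU.1) and TGANTCA (AP-1).

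Il1a: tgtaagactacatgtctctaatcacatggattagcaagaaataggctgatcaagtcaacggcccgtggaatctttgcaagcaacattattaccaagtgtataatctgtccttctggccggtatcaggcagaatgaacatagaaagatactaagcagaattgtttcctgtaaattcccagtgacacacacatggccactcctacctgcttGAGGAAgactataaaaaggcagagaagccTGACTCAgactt

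Il1b: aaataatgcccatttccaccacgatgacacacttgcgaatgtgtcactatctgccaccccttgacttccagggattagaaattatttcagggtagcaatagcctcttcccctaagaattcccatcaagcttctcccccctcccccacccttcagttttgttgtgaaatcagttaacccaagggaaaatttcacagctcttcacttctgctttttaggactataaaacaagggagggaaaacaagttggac

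Il18: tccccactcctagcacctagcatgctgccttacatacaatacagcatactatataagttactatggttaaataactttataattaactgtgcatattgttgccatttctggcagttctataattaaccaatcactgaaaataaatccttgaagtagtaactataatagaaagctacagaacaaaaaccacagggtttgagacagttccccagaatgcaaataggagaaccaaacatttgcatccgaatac

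The Il1a window held 1 GAGGAA that began 41 bases before the start and 1 TGACTCA that began 12 bases before it, with no overlap between them. Among 32851 promoters of this length, 23.3% held GAGGAA, 6.75% TGANTCA, 45.8% the NF-kB motif and 9.56% TTGCNNAA. The windows of Il1b and Il18 held none of the 4 motifs, which says only that these letters do not occur there. The 3 ligand genes, whose levels moved in the same direction, thus had no match in common in these windows. Of the members with several starts, 1 of the Nlrp3 windows held GAGGAA or its reverse at 3 places, and gene-level counts cannot tell which start was in use. The other Nlrp3 window held an NF-kB match. Windows of Il1rn held NF-kB and AP-1 matches, and those of Il1r1 C/EBP and NF-kB matches. Members that did not pass held matches too: Il1rap 6 to the NF-kB motif, and Casp1 and Pycard 1 each to GAGGAA or its reverse.

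Il1b, the gene of the secreted ligand interleukin 1 beta (chromosome 2, 129364570 to 129371139, GRCm38), had 44.5, 49.6 and 76.9 normalised reads in E531R replicates 1, 2 and 3, against 1.60, 2.30 and 4.72 in WT. All 3 E531R values lay above all 3 WT values, which was so for 21.2% of all tested genes. The mean was 57.0 ± 17.4 in E531R and 2.87 ± 1.64 in WT (SD, n = 3 each), or 3.95 ± 0.379 (SE) as log2 fold change, with a limma adjusted p of 0.000466. The WT value rests on 9 reads over the 3 libraries and the E531R value on 194. The ratio of the pooled reads, corrected for depth, was 17.1 with a 95% exact binomial interval of 8.81 to 37.9, which covers counting error only.

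Il1a, the gene of the cell-associated ligand interleukin 1 alpha, is a neighbour on the same chromosome (129299610 to 129309972). It had 50.03, 64.2 and 50.6 normalised reads in the E531R libraries, against 7.98, 1.15 and 1.57 in WT. The groups did not overlap, and WT replicate 1 was the highest of its group. The mean was 55.0 ± 8.03 in E531R and 3.57 ± 3.83 in WT (SD, n = 3 each), 15.4-fold higher in E531R, and 40.4-fold without WT replicate 1. The log2 fold change was 3.92 (SE 0.546; limma adjusted p = 0.00259), and 4.56 without that library (limma adjusted p = 0.000287). Over the groups these values stand for 190 reads in E531R and 8 in WT.

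Il18, the gene of the ligand that drives interferon gamma production in lymphocytes, lies on chromosome 9 (50554827 to 50581840). Its values were 32.0, 38.9 and 41.9 in the E531R libraries, against 1.60, 1.15 and 2.36 in WT, with no overlap. The log2 fold change was 3.85 (SE 0.292; limma adjusted p = 0.000165), from 129 reads in E531R and 5 in WT. The ratio of pooled reads was 20.4, with a counting interval of 8.54 to 64.0. Thus each of the 3 ligand genes was close to the limit of detection in WT and clearly read in every E531R library, and at these read numbers their folds cannot be ranked. Their size also depends on the pseudocount. With 10 in place of 1 the log2 fold changes of Il1a, Il1b and Il18 were 2.29, 2.36 and 2.02. All 3 still passed (limma adjusted p = 0.000413, 0.000308 and 0.00011), but lay below Il1rn at 2.78 and Nlrp3 at 2.48. The authors' deposited log2 fold changes were 2.69, 2.69 and 2.51 for Il1a, Il1b and Il18, beside 2.73 for Il1rn and 2.555 for Nlrp3. That the ligand genes had the largest folds therefore depends on the estimate used.

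No source here states whether counting used strand, and reads of antisense neighbours could be shared with the ligand genes. The antisense transcript Gm14023 shares 222 exonic bases with Il1a and had at most 7.64 normalised reads, and Il1bos shares 25 bases with Il1b and had at most 2.30. Bco2, which runs against Il18 without sharing exonic bases, had 31.3, 41.8 and 36.0 in E531R and 27.1, 51.7 and 31.5 in WT. The Bco2 values of the groups overlapped.

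Il1rn, the gene of the receptor antagonist (chromosome 2, 24336853 to 24351494), had 1181, 1019 and 1216 normalised reads in the E531R libraries, against 158, 144 and 171 in WT. The spread within each group was small beside the gap between them. The fold of the means was 7.23 and the log2 fold change 2.85 (SE 0.109; limma adjusted p = 1.04e-05).

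Per kilobase of exon, Il1rn stood at 206 in E531R and 28.4 in WT. The length was that of all annotated exons of a gene joined, which can exceed that of the transcript in use. Levels of different genes are therefore compared only roughly. Il1a and Il1b stood at 27.8 and 29.9 in E531R and at 1.81 and 1.51 in WT. The ratio of Il1rn to the sum of Il1a and Il1b, per kilobase, was 4.38, 3.14 and 3.33 in the E531R libraries, against 5.85, 14.5 and 9.43 in WT. Antagonist transcripts therefore outnumbered those of the ligands in all 6 libraries, by less in each E531R library than in any WT library. The WT ratios rest on few ligand reads, and the ratio was described without a test.

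**Figure D1:**
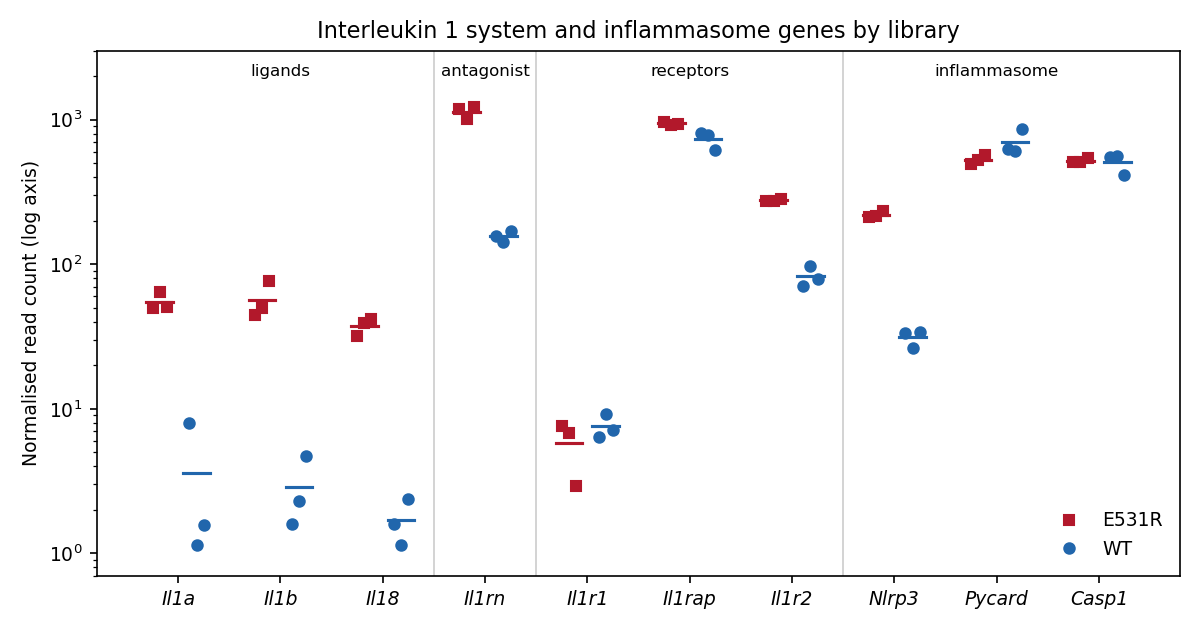
Normalised read count (log y axis) of the 10 members in each library, as red squares for E531R and blue circles for WT, with a bar at the mean of 3 libraries. The ligand genes lie between 32.0 and 76.9 in E531R and between 1.15 and 7.98 in WT, while Casp1 and Il1r1 overlap between the groups.

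Il1r2, the gene of the decoy receptor (chromosome 1, 40074079 to 40125231), had 276, 273 and 284 normalised reads in the E531R libraries, against 70.2, 97.6 and 79.5 in WT. The E531R values were nearly equal to one another and all above those of WT. The log2 fold change was 1.75 (SE 0.140; limma adjusted p = 0.000208), a 3.37-fold higher mean in E531R.

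Il1r1, the signalling receptor chain (chromosome 1, 40225080 to 40317257), had 7.64, 6.81 and 2.92 in the E531R libraries, against 6.39, 9.18 and 7.09 in WT, and the groups overlapped. These values are 21 reads over each group, and the depth-corrected ratio was 0.792 with a counting interval of 0.412 to 1.52. A change within that interval was not detectable at this depth. Il1r1 entered the fit only when the minimum mean was dropped, and it did not pass (log2 fold change -0.40; limma adjusted p = 0.641).

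Il1rap, the accessory chain that the receptor needs to signal (chromosome 16, 26581704 to 26730117), had 970.1, 921 and 934 in the E531R libraries, against 805, 786 and 619 in WT. All E531R values lay above those of WT, and the lowest value was that of WT replicate 3. With all libraries Il1rap did not pass (log2 fold change 0.36, SE 0.114, 95% interval 0.09 to 0.63; limma adjusted p = 0.0687). Without WT replicate 3 it passed at a smaller log2 fold change of 0.24 (limma adjusted p = 0.00113).

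Set side by side per kilobase, the receptor genes kept a wide gap. In E531R, Il1r2 stood at 146, Il1rap at 82.9 and Il1r1 at 0.910, and in WT at 43.2, 64.8 and 1.19. The ratio of decoy to accessory chain was 1.69, 1.77 and 1.81 in the E531R libraries, against 0.520, 0.739 and 0.765 in WT. Per kilobase, the decoy was thus above the accessory chain in every E531R library and below it in every WT library. That crossing depends on exon lengths of 1.908 kilobases for Il1r2 and 11.36 for Il1rap. In normalised reads Il1r2 lay below Il1rap in every library of both groups.

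Il1r2 and Il1r1 belong to a row of receptor genes of the same family on chromosome 1, and the others were looked at for their position. Il1rl2, the receptor gene for interleukin 36 (40324610 to 40367562), had 619, 605 and 571 normalised reads in E531R, against 452, 478 and 439 in WT. It passed at a log2 fold change of 0.39 with a limma adjusted p of 0.013. The call was lost when E531R replicate 1, E531R replicate 2 or WT replicate 1 was left out, at limma adjusted p values of 0.0835, 0.0754 and 0.0518. Il18rap, the accessory chain of the interleukin 18 receptor (40515362 to 40551705), had 671, 729 and 620.1 in E531R, against 249, 256 and 255 in WT. Its log2 fold change was 1.40 (limma adjusted p = 7.45e-05), and no value of one group reached the other. Between them lie Il1rl1, the interleukin 33 receptor, with 2 reads over E531R and 0 over WT, and Il18r1, the ligand-binding chain for interleukin 18, with 17 reads over E531R and 5 over WT.

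Nlrp3, the inflammasome sensor (chromosome 11, 59541568 to 59566956), had 213, 215 and 232 normalised reads in the E531R libraries, against 33.5, 26.4 and 33.9 in WT. The groups lay far apart, with a fold of the means of 7.03, or 2.78 ± 0.143 (SE) on the log2 scale, and a limma adjusted p of 3.17e-05.

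Pycard, the gene of the adaptor ASC (chromosome 7, 127989708 to 127993867), had 492, 528 and 570.5 in the E531R libraries, against 624, 608 and 864 in WT. All E531R values lay below those of WT, as in 22.8% of all tested genes, and WT replicate 3 was far the highest. Pycard did not pass with all libraries (log2 fold change -0.38, SE 0.149; limma adjusted p = 0.128). Without WT replicate 3 it passed as lower, at a smaller log2 fold change of -0.22 (limma adjusted p = 0.0167).

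Casp1, the protease that cuts the ligand precursors (chromosome 9, 5298517 to 5307265), had 507, 513 and 542 in the E531R libraries, against 552, 560.3 and 417 in WT. The WT values lay on both sides of those of E531R. The log2 fold change was 0.04 with a 95% interval of -0.26 to 0.35 (limma adjusted p = 0.839), and its sign turned when WT replicate 3 was left out, to -0.10 with a limma adjusted p of 0.24. A rise of the size of that of Nlrp3 lies outside this interval.

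The processing genes therefore differed in their behaviour within 1 complex. The ratio of Nlrp3 to Pycard per kilobase was 0.405, 0.381 and 0.380 in the E531R libraries, against 0.0503, 0.0406 and 0.0367 in WT. The ratio of Nlrp3 to Casp1 was 0.155, 0.155 and 0.158 in E531R, against 0.0224, 0.0174 and 0.0299 in WT. In both groups the sensor had the lowest level of the 3, per kilobase and in normalised reads. Casp1 was the highest member per kilobase, at 348 in E531R and 341 in WT. Its place above Pycard rests on exon lengths of 1.497 kilobases for Casp1 and 3.8 for Pycard. In normalised reads Casp1 and Pycard averaged 521 and 530 in E531R and 510 and 699 in WT.

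**Figure D2:**
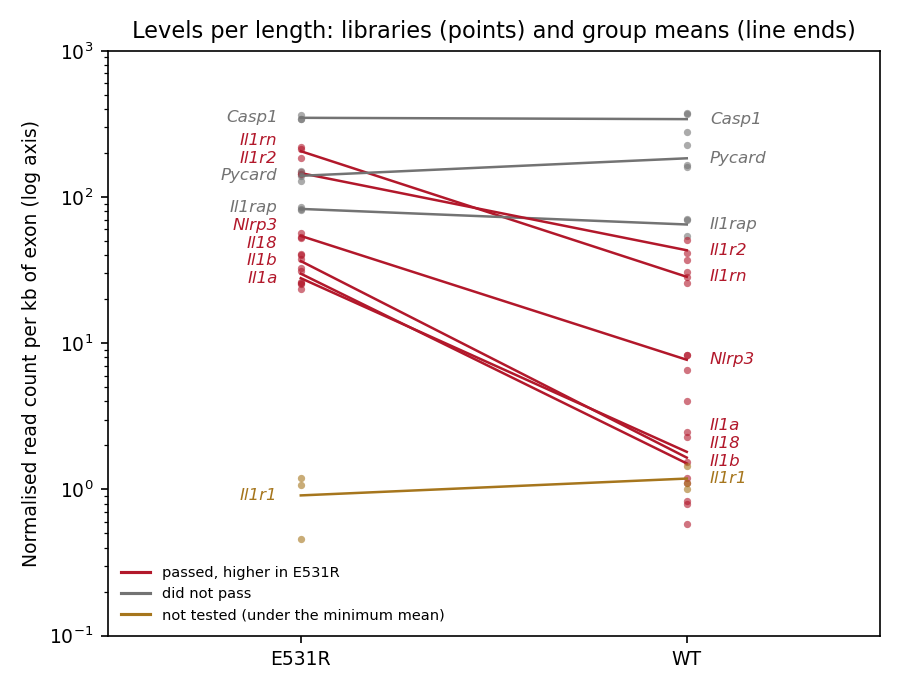
Normalised read count per kilobase of exon (log y axis) of each member in E531R (left) and WT (right), with a point per library and lines joining the group means; red lines passed the test, grey lines did not, and Il1r1 was not tested. On this scale Casp1 stays on top at 348 and 341, while Il1rn stands at 206 in E531R and 28.4 in WT.

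The orders that follow depend on the exon lengths used. In E531R the order of the levels per kilobase was Casp1, Il1rn, Il1r2, Pycard, Il1rap, Nlrp3, Il18, Il1b, Il1a and Il1r1. The libraries of Il1r2 and Pycard overlapped there, as did those of Il18 and Il1b and of Il1b and Il1a. In WT the order was Casp1, Pycard, Il1rap, Il1r2, Il1rn, Nlrp3, and then Il1a, Il18, Il1b and Il1r1, whose neighbours all overlapped. Il1rn took the second place in E531R and the fifth in WT.

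**Figure D3:**
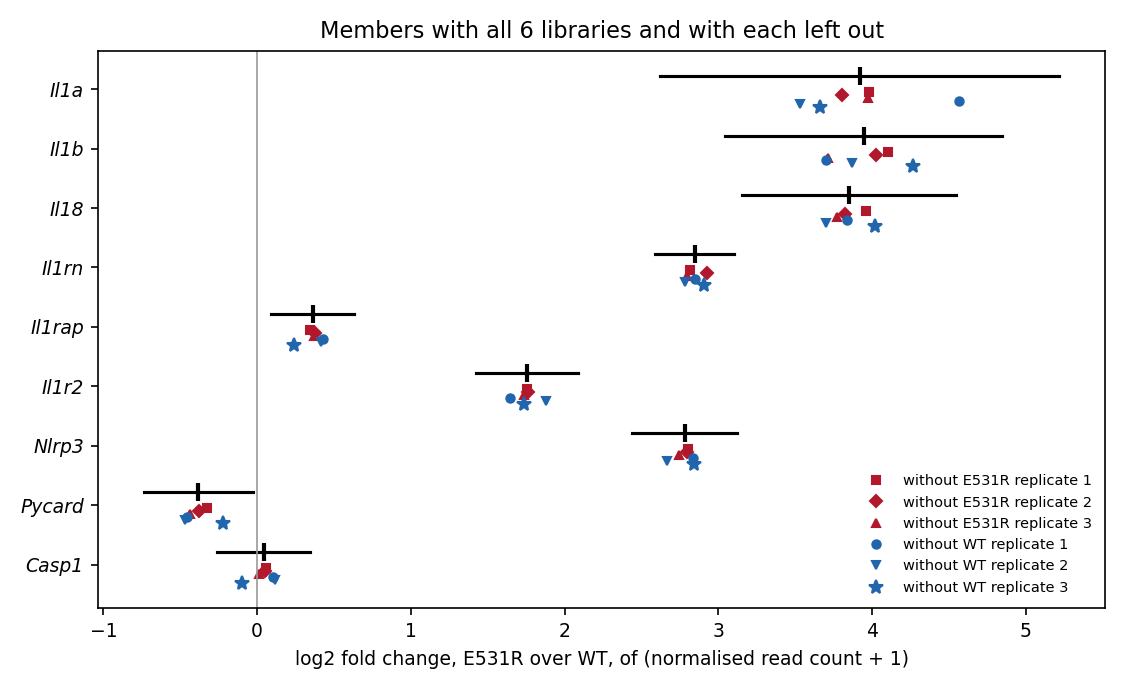
Log2 fold change of E531R over WT for the 9 tested members (x axis), with a black bar for the 95% interval of the limma fit over all 6 libraries and coloured marks for the fits without each library. Il1r2 is the lowest of the 6 members that rose, between 1.65 and 1.88, and the star of WT replicate 3 moves Il1rap, Pycard and Casp1, which lie at 0.24, -0.22 and -0.10 without it.

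The rest of the pathway was read from 6 lists of 78 gene names, of which 65 could be tested. In these lists 28 genes were higher and 2 lower in E531R, with a median log2 fold change of 0.34. The 4 interleukin 36 family genes Il36a, Il36b, Il36g and Il36rn are not analysed here, and 9 genes lay under the minimum mean. Of the genes called higher, Nlrp1b, P2rx7, Cxcl2 and Ccl2 met that minimum through E531R only. Their WT means were 3.15, 5.36, 1.55 and 1.57. The lists were described by counts beside the 10.4% and 9.53% of all genes, with no test of a list.

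Of 19 tested genes of interleukin 1 receptor signalling, 6 rose and 0 fell, with a median log2 fold change of 0.15. Those with the smallest adjusted p include the inhibitory kinase-like protein gene Irak3, which averaged 845 ± 14.3 in E531R and 449.9 ± 11.2 in WT (SD, n = 3 each). Peli1 and Peli2, ubiquitin ligases of the receptor complex, were higher by 1.07 and 0.74 on the log2 scale, at limma adjusted p values of 0.000566 and 0.00181. The kinase gene Irak2 rose by 0.67 on the log2 scale and Ikbkb, a kinase that releases NF-kB, by 0.30 (limma adjusted p = 0.00576 and 0.0139). The Ikbkb call was lost without E531R replicate 1, 2 or 3 (limma adjusted p = 0.0906, 0.074 and 0.0781). The core adaptors and kinases Myd88, Irak1, Irak4, Traf6 and Map3k7, named after their values were seen, lay between -0.05 and 0.15 on the log2 scale and did not pass. Without WT replicate 3, 10 genes of this list were higher and 0 lower, where 24.3% of all tested genes were higher and 23.1% lower.

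Among 21 tested inflammasome sensors and partners 10 rose and 0 fell, with a median log2 fold change of 0.42. Nlrp1b, a sensor of bacterial proteases such as anthrax lethal factor, had 47.9, 44.8 and 46.7 normalised reads in E531R, against 4.79, 2.30 and 2.36 in WT. P2rx7, the ATP-gated channel that triggers NLRP3, had 55.6, 65.2 and 80.8 in E531R, against 3.19, 3.44 and 9.45 in WT. As log2 fold changes these were 3.57 for Nlrp1b, with a limma adjusted p of 0.00024, and 3.54 for P2rx7, with 0.000926, and in neither gene did the groups overlap. Nlrc4 and Naip2, partners in sensing bacterial proteins, rose less, by 0.77 and 0.48 on the log2 scale at limma adjusted p values of 0.00152 and 0.00252, and the sensor gene Nlrp12 had 1.23 (0.00585). Nlrp1a and Nlrp1b, and the Naip genes among themselves, are close copies, so reads could be split between them in the counting. Without WT replicate 3 the list had 13 genes higher and 2 lower, beside 24.3% and 23.1% of all tested genes.

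Genes of pyroptosis, the lytic death that follows inflammasome activation, moved both ways, with 2 of 8 higher and 2 lower. Gsdmd, the pore-forming gasdermin that caspase 1 cuts, averaged 968 ± 19.6 in E531R and 1279 ± 112 in WT (SD, n = 3 each), and its log2 fold change was -0.40 with a limma adjusted p of 0.0156. Gsdme, a gasdermin cut by caspase 3 that the table lists under its older symbol Dfna5, had -0.45 (limma adjusted p = 0.0168). Casp4, the sensor of bacterial lipopolysaccharide inside cells, and Serpinb1a, an inhibitor of neutrophil proteases and inflammatory caspases, were higher by 0.54 and 0.38 on the log2 scale (limma adjusted p = 0.0206 and 0.0309). Casp8 did not pass (0.24; limma adjusted p = 0.0549). The Gsdmd and Casp4 calls were lost in each fit without an E531R library (limma adjusted p between 0.0673 and 0.0979). The Gsdme call was lost without E531R replicate 1 or 3 and without WT replicate 1 or 2 (limma adjusted p = 0.0871, 0.0818, 0.0658 and 0.053). The Serpinb1a call was lost in every fit that left out a library other than WT replicate 3 (limma adjusted p between 0.0883 and 0.134) and with upper-quartile rescaling (0.0704). Casp8 passed with TMM rescaling (0.25 on the log2 scale; limma adjusted p = 0.0455) and when WT replicate 3 was left out (0.19; 0.000604).

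Of 12 tested genes known to respond to interleukin 1 in other cells, 8 rose and 0 fell, with a median log2 fold change of 1.11. Tnf, an inflammatory cytokine gene, averaged 522 ± 17.1 in E531R and 243 ± 8.16 in WT (SD, n = 3 each). The NF-kB inhibitor genes Nfkbia and Tnfaip3 rose by 1.13 and 1.74 on the log2 scale, at limma adjusted p values of 0.000337 and 0.0004. Saa3, an acute phase protein gene, and Lcn2, the gene of an iron-withholding protein, had means of 209.7 and 1794 in E531R and 27.7 and 329 in WT. Lcn2 is also on the neutrophil marker list. Il6, Cxcl1 and Csf3, named after their values were seen, had 1, 0 and 6 reads over the E531R libraries and 2, 0 and 2 over the WT libraries. Cxcl2 and Ccl2, named in the same way, had 95 and 74 reads over E531R and 5 and 6 over WT. Both were higher, by 3.62 and 3.60 on the log2 scale (limma adjusted p = 0.00338 and 0.0123). Without WT replicate 3 the counts were 9 higher and 1 lower, beside 24.3% and 23.1% of all tested genes.

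Outside the members, the interleukin 1 family ligand and binding protein genes Il33 and Il18bp did not pass (log2 fold change 0.41 and 0.12; limma adjusted p = 0.344 and 0.752). The interleukin 18 binding protein gene Il18bp averaged 59.5 ± 10.4 in E531R and 55.2 ± 13.7 in WT (SD, n = 3 each), with overlapping groups. Sigirr, an inhibitory receptor of the family, had 267 ± 23.0 in E531R and 268 ± 32.7 in WT.

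**Figure D4:**
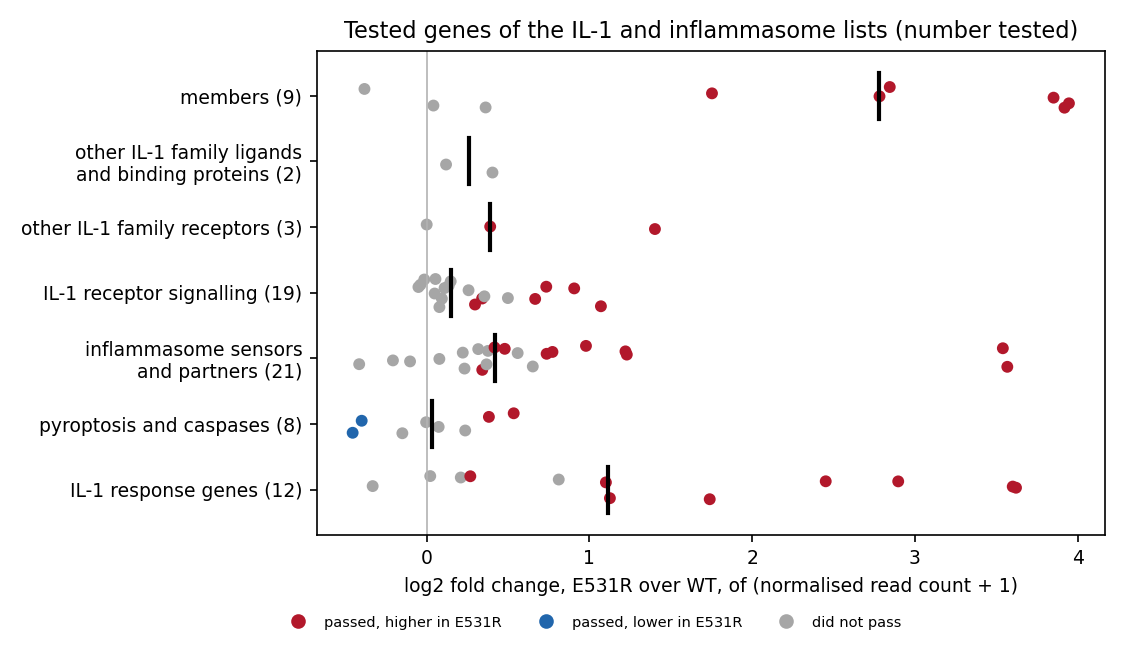
Each point is a tested gene, placed along the x axis by log2 fold change (E531R over WT) in its list (rows, number tested in brackets); red and blue points passed as higher and lower in E531R, grey points did not pass, and black bars are medians. The medians lie at 2.78 for the members, 0.42 for inflammasome sensors and partners, 0.15 for receptor signalling and 0.04 for pyroptosis genes.

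The members that rose moved together with marker genes of more mature myeloid cells. Of 11 tested neutrophil markers 11 were higher in E531R, where 10.4% of all tested genes were higher and 9.53% lower. Mmp9 of this list met the minimum mean through E531R only, with a WT mean of 5.14. The summed normalised reads of the list ran from 69197 to 76719 in E531R and from 7472 to 9796 in WT. Of 10 tested monocyte and macrophage markers 9 were higher and 0 lower, with sums from 42448 to 46242 in E531R and from 25149 to 33254 in WT. The most abundant markers were S100a8, Ngp and S100a9 of neutrophils, higher by 3.65, 2.66 and 3.93 on the log2 scale (limma adjusted p between 2.12e-06 and 4.00e-05). Among those of monocytes Ly6c2 did not pass (-0.01, limma adjusted p = 0.979), and Itgam and Lyz2 rose by 1.45 and 2.04 on the log2 scale (1.52e-05 and 8.28e-05). Without WT replicate 3 all 10 tested markers of the monocyte and macrophage list were higher, Ly6c2 included. In that fit 24.3% of all tested genes were higher. Other macrophage genes of the list, named after their values were seen, differed widely in level. Mrc1, Adgre1, Mpeg1 and Cd68 averaged 622, 1123, 3649 and 1250 in E531R and 19.3, 292, 382 and 249.6 in WT, and all 4 were higher in E531R (limma adjusted p between 1.44e-06 and 0.000145). The complement genes C1qa and C1qb had 2 and 0 reads over the E531R libraries and 0 and 1 over the WT libraries. Retnlg of mature neutrophils had 2 reads over E531R and 1 over WT. In bulk samples more cells of a type and more RNA per cell cannot be told apart, and the part of these markers in the values of the members was not tested.

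Of 8 early myeloid genes 3 were higher and 1 lower, where 10.4% of all tested genes were higher and 9.53% lower. Their sums ran from 325431 to 338082 in E531R and from 266030 to 323284 in WT. The progenitor markers named above split: Mpo was higher (log2 fold change 0.56; limma adjusted p = 0.00631), Ctsg lower (-0.84; 0.00384), and Elane did not pass (0.26; 0.217). The other genes of the list were named after their values were seen. Cd34 and Prtn3 were higher (log2 fold change 1.01 and 0.67, limma adjusted p = 0.00132 and 0.0129). Kit, Ptprc and Myb did not pass (-0.10, 0.26 and -0.34, limma adjusted p = 0.28, 0.567 and 0.0532). Without WT replicate 3, 4 of the 8 were higher and 4 lower, so the results for Elane and Kit depended on that library. In that fit 24.3% of all tested genes were higher and 23.1% lower. Of the mast cell and basophil markers 3 of 8 could be tested, with 0 higher and 2 lower and sums from 180.0 to 217 in E531R and from 265 to 335 in WT. Ms4a2, which did not pass, had 324 reads over E531R and 235 over WT, and the lower genes Mcpt8 and Gata2 had 239 and 113 over E531R and 361 and 232 over WT, while Mcpt4, Cma1 and Fcer1a were at 0 in all 6 libraries. Of 7 lymphoid markers 1 could be tested, Nkg7, which was lower, with sums of the list from 269.6 to 295 in E531R and from 623 to 778 in WT. Nkg7 had 968 reads over E531R and 1927 over WT, Cd79a 23 and 6, and Cd3d 5 and 5, while Cd3e, Ms4a1 and Ncr1 were at 0 in all 6 libraries. Of 8 stroma and endothelium markers 2 could be tested and 1 was lower, Pecam1, which blood cells also express, with sums from 1430 to 1543 in E531R and from 5461 to 6299 in WT. Col1a1, which did not pass, had 60 reads over E531R and 19 over WT, Lepr had 22 and 8, and Cxcl12 was at 0 in all 6 libraries. When WT replicate 3 was left out, the mast cell and basophil list had 0 genes higher and 3 lower. The stroma and endothelium list then had 1 higher and 1 lower. The part of these marker genes was not tested either.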

How the data were processed

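Total RNA of 6 libraries was sequenced, and groups were taken from the sample titles. The authors' deposited table gives 1 value of unit signal per gene and library, gene read counts divided by a size factor. Per the submitters' processing notes, the tools included HISAT2, featureCounts and DESeq2 and the build was GRCm38; no source here states the annotation or strand setting. Deposited columns also hold the authors' log2 fold change (WT over E531R, sign turned here), a score statistic and p-values. A change shared by nearly all genes is hidden by size factors. In each column 100% of values were whole multiples, within 0.001 reads, of the smallest value above 0, so reads were recovered. Totals ran from 14161139 to 33459668; intervals at 95% cover counting error only.

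Groups were compared two-sided by limma 3.58.1 (R 4.3.3) on log2(value + 1), with the variance trend over mean level, among genes with a mean of at least 10, Benjamini-Hochberg adjustment and a threshold of 0.05. Fold changes on this scale understate those of low genes. edgeR 4.0.16 quasi-likelihood called 1393 genes higher and 1251 lower on recovered reads, and DESeq2 1.42.0 called 1372 and 1234. Also tried were TMM and upper-quartile rescaling, pseudocounts of 0.5 and 10, dropping the filter or raising it to 50, the replicate number as a block, and each library left out.

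The members and lists were chosen with earlier results of these data known. Named are all members and up to 5 genes of each pathway list with the smallest adjusted p. Up to 3 genes of each marker list with the highest mean are named too. Further genes are named for their position or after their values were seen. Gene positions and exon lengths come from GENCODE M21 on GRCm38, and promoter windows from RefSeq, which matched all 10 members.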

Additional observations from a re-analysis of the deposited data

How the results depend on the processing

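All 6 calls among the members kept their direction and stayed past the threshold in every alternative in which the gene was tested, with log2 fold changes from 1.65 (Il1r2) to 4.56 (Il1a). Those of the ligand genes moved most, over 2.29 to 4.56 for Il1a, 2.36 to 4.27 for Il1b and 2.02 to 4.401 for Il18, each lowest with a pseudocount of 10. With a mean of at least 50, 3 members were higher, because Il1a, Il1b and Il18 lie under that minimum. Without WT replicate 3, 1 member was lower (Pycard), Il1rap passed and Casp1 turned sign, with log2 fold changes from -0.0956 to 0.117 over the fits that left out 1 library; the cause was not tested.

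Leaving out single libraries gave 819 to 3159 higher and 746 to 2999 lower genes, 6 to 7 members higher and 0 to 1 lower, and 18 to 37 higher and 0 to 5 lower genes of the pathway lists. The highest count came without WT replicate 3 in each case.

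Of the named pathway genes, Il18bp turned negative without WT replicate 3, and ran from -0.0897 to 0.273 over the fits that left out 1 library. Sigirr, at 0.00 with all libraries, stood at -0.0382 with upper-quartile rescaling and -0.00293 with DESeq2, and ran from -0.0849 to 0.0904 over the fits that left out 1 library.

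Whether equal replicate numbers pair the libraries could not be settled. Correlations across genes of their deviations were 0.00174, 0.192 and 0.238 for numbers 1, 2 and 3. E531R replicates 2 and 3 correlated best with the WT library of the same number, although replicate 2 had 0.177 with WT replicate 1. E531R replicate 1 correlated best with WT replicate 2, at only 0.0224. With the replicate block, 6 members were higher and 0 lower, with 1179 higher and 1062 lower genes over the table. Among the members and the named genes of the pathway lists, the block ended the call of Ikbkb (limma adjusted p = 0.0518) and no other. For named genes of the marker lists other than Lcn2, log2 fold changes and adjusted p values under the alternatives are not given here.

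Between 5 and 9 WT reads stand behind each ligand gene, which limits the precision of their folds.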
